A study of Mus musculus with 8 samples.

Results

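The mouse genome holds 39 Hox genes, and 26 of them had a row in at least 1 of the expression tables of developing sympathetic ganglia, out of 14189 gene symbols in all. Members were taken by symbol, as any row named Hoxa, Hoxb, Hoxc or Hoxd followed by a number. The E11.5 table held 26 of its 13506 genes by this rule and the one for E14.5 gave 22 of 13413. No antisense Hox row was found in either table. RNA-seq had been done on ganglia dissected from embryos at E11.5 and E14.5. At E11.5, *Isl1* CKO embryos (*Wnt1-Cre*;*Isl1* f/f, labelled *Isl1-/-*) were compared with controls (*Wnt1-Cre*;*Isl1*+/+, labelled Wild type). Both genotypes carried the *Wnt1-Cre* transgene, which recombines in neural crest, and a *Rosa26-tdTomato* reporter by which non-fluorescent tissue was cut away. At E14.5, hypomorphic embryos with 2 *Isl1* f-neo alleles, labelled as *Isl1* mutation, were compared with wildtype embryos (*Isl1*+/+), and the neo insertion is not restricted to a cell type. Each genotype had 2 libraries, each from ganglia pooled from about 10 embryos, and the deposited tables give 1 combined FPKM per gene and genotype. FPKM counts fragments per kilobase of transcript, scaled to the number of mapped fragments, so levels can be set side by side between genes. No value for a single library was given, the depth is unknown, and no difference below has an error, a replicate check or a test.

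Hox genes encode homeodomain transcription factors that lie in 4 clusters, HoxA to HoxD. The order of the genes along a cluster matches the order in which they are switched on along the body axis, low paralog numbers towards the head and high numbers towards the tail. Cells keep much of this code after they form, so the set of Hox genes in a tissue reads out the axial level from which its cells came. In the vertebral column, genes of paralog group 10 pattern lumbar levels and those of group 11 sacral levels. Sympathetic ganglia form from trunk neural crest alongside the aorta, from the superior cervical and stellate ganglia in front to the chain behind. HOX proteins bind DNA together with the TALE homeodomain proteins of the Pbx, Meis and Pknox families, retinoic acid induces many Hox genes, and Polycomb and trithorax complexes hold them off or on.

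*Isl1*, the targeted gene, which encodes a LIM-homeodomain factor, was at an FPKM of 133 in control and 40.0 in CKO ganglia at E11.5, and at 162 in wildtype and 83.1 in hypomorphic ganglia at E14.5. Genes that mark sympathetic neurons were present in every column, with *Dbh*, the last enzyme of noradrenaline synthesis, at 543, 594, 608 and 568 in control, CKO, wildtype and hypomorphic ganglia. The E11.5 columns differed in their makeup. Erythroid genes took 2.29% of all FPKM in controls and 11.2% in CKO. At least 1.5-fold higher in CKO were 11 of 12 measured erythroid genes, against 18.9% of all genes. The exception, the embryonic globin gene *Hbb-y*, was at 7552 in controls and listed at 0 in CKO, and without it the shares were 0.712% and 11.2%. In such bulk samples, fewer cells of a type and less RNA per cell cannot be told apart.

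Which axial levels the ganglia carried was read from the levels of the genes in order of paralog number. In control ganglia at E11.5 the central genes, paralogs 4 to 8, made up 81.8% of the summed Hox FPKM of 237. The anterior genes, paralogs 1 to 3, made up 9.72% and the posterior genes, paralogs 9 to 13, made up 8.51%. The mean paralog number weighted by FPKM was 5.83. All 15 central Hox genes of the mouse had a row, against 5 of 8 anterior and 6 of 16 posterior genes. No gene of paralog groups 1, 11, 12 or 13 had a row at either stage, and *Hoxd10* had none. A gene without a row was below the limit of the table, an FPKM of 1 in both genotypes, or was left out for another reason. Of the homeobox genes that act beside the clusters in the tail bud and at the ends of HoxA and HoxD, *Cdx1*, *Cdx2*, *Cdx4*, *Evx1* and *Evx2*, 0 had a row.

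*Hoxc4*, *Hoxc8* and *Hoxc6* were the most abundant Hox transcripts in 3 of the 4 columns, all but CKO. In control ganglia they were at 40.4, 24.3 and 20.0, together 35.7% of the Hox FPKM, and *Hoxc4* stood at percentile 84.0 among all genes of its column. In wildtype ganglia at E14.5 they were at 34.7, 35.3 and 28.8, together 47.8%. The HoxC cluster, which has no genes of paralog groups 1 to 3 and had 6 genes with a row at E11.5 and 5 at E14.5, thus held 46.0% of the Hox FPKM in control and 55.7% in wildtype ganglia. In CKO ganglia the order was different, with *Hoxa5* at 20.5, *Hoxc4* at 20.4 and *Hoxb7* at 20.1 at the top.

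At the anterior end, the levels were low and close to each other. *Hoxa2* and *Hoxb2*, the most anterior genes with a row, were at 5.06 and 6.23 in control ganglia, and *Hoxa3*, *Hoxb3* and *Hoxd3* lay between 3.66 and 4.10. At the posterior end they were lower beyond the first genes. *Hoxc9* and *Hoxb9* were at 8.25 and 7.10, *Hoxa9* at 2.03, *Hoxc10* at 1.31, *Hoxd9* at 0.788 and *Hoxa10* at 0.719. *Hoxd9* and *Hoxa10* were under an FPKM of 1 in control ganglia and entered the table through CKO ganglia alone, so they could only have been listed as higher there. At E14.5 *Hoxc9* and *Hoxb9* were the last genes with a row, at 10.97 and 3.74 in wildtype ganglia.

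Many Hox genes overlap the span of a neighbour, introns included, which may bear on the levels of those genes. In the mm9 annotation the clusters lie at chr6:52105366-52210874 for HoxA, chr11:96055630-96229570 for HoxB, chr15:102751534-102867274 for HoxC and chr2:74506367-74603200 for HoxD. Of the 26 genes, 21 overlap the span of another annotated gene and 5, *Hoxa10*, *Hoxb4*, *Hoxb9*, *Hoxc4* and *Hoxd9*, overlap none. The span of *Hoxa3* contains *Hoxa4*, *Hoxa5* and *Hoxa6* and reaches into *Hoxa2*, that of *Hoxd3* contains *Hoxd4*, the end of *Hoxb8* overlaps the start of *Hoxb7*, and the predicted gene *Gm20398* runs over *Hoxc5* to *Hoxc10*. The library kit is not one that marks strand, so fragments from a Hox gene and from a gene antisense to it could not be told apart.

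**Figure D1:**
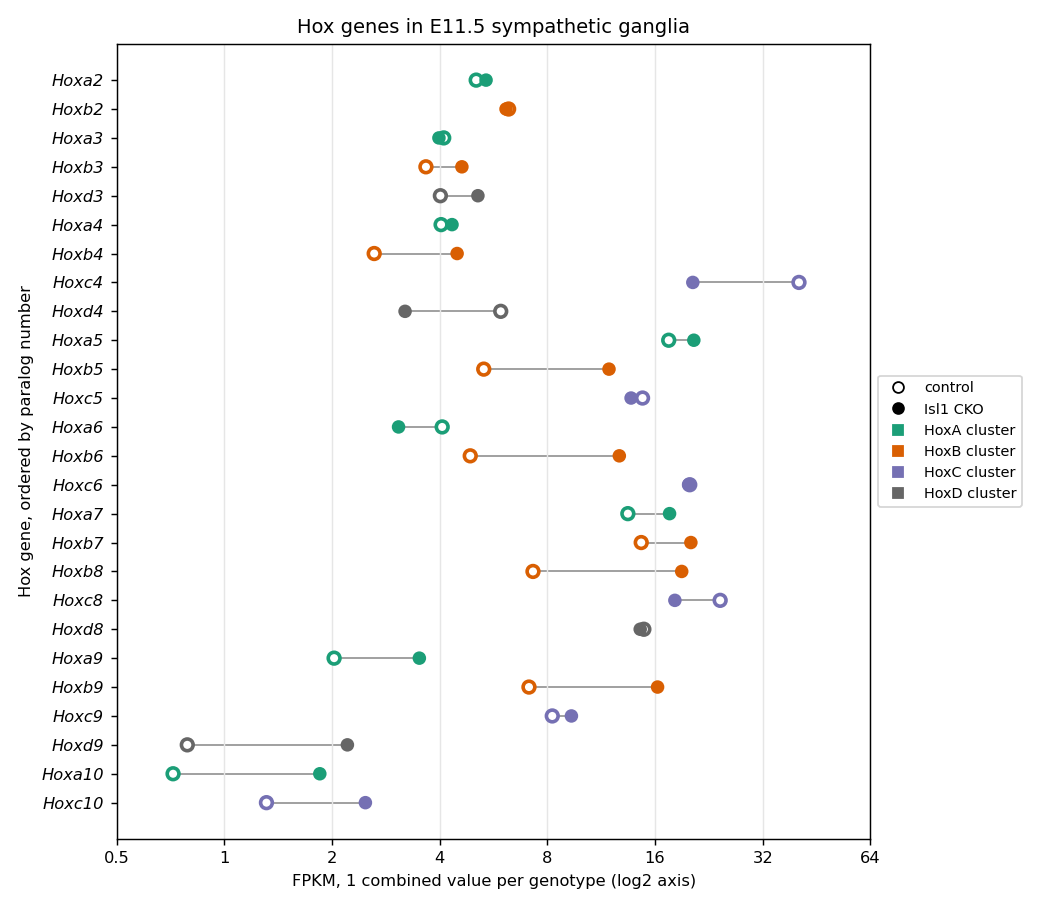
FPKM of the 26 Hox genes at E11.5 on a log2 axis, ordered by paralog number from top to bottom, with an open circle for control ganglia, a filled circle for *Isl1* CKO ganglia and the colour giving the cluster. Each circle is 1 combined value of 2 libraries without an error. *Hoxc4* has the highest value at 40.4 in control ganglia, and the HoxB genes from *Hoxb4* to *Hoxb9* all have the CKO circle to the right.

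The E11.5 comparison asked how the ganglia differed when *Isl1* had been removed from neural crest. At least 1.5-fold higher in CKO ganglia were 5 of 8 HoxB genes, and *Hoxc4* and *Hoxd4* were at least 1.5-fold lower. In all, 9 of 26 Hox genes were at least 1.5-fold higher in CKO, against 18.9% of all genes, and 2 were at least 1.5-fold lower, against 12.9% of all genes. Of the 9, *Hoxd9* and *Hoxa10* were listed through CKO and could only have been higher. With an FPKM of 1 or more in both genotypes, 7 of 24 Hox genes were higher, against 15.5% of all genes. Under that filter 2 were lower, against 11.8%. The median log2 ratio of CKO over control was 0.28 over all 26 Hox genes and 0.05 over all genes.

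HoxB genes accounted for 5 of the 9. *Hoxb8* was at 7.29 in control and 19.0 in CKO ganglia, with a log2 ratio of 1.37. *Hoxb6* was at 4.87 and 12.7, also a ratio of 1.37, and *Hoxb9* was at 7.10 and 16.3, a ratio of 1.18. Each of these more posterior HoxB genes was thus more than doubled in level. *Hoxb5* was at 5.31 in control and 11.9 in CKO ganglia, with a ratio of 1.15, and *Hoxb4* was at 2.62 and 4.47, with a ratio of 0.75. *Hoxb7* was already the most abundant HoxB gene in control ganglia and went from 14.6 to 20.1, a ratio of 0.46 that did not reach 1.5-fold. *Hoxb3* had a ratio of 0.33 and *Hoxb2* of -0.02. *Hoxb2*, *Hoxb3* and *Hoxb7* thus stayed inside 1.5-fold, and after the rescaling described below *Hoxb4* did too.

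*Hoxc4* and *Hoxd4*, 2 genes of the same paralog group, were the ones that were lower. *Hoxc4* was at 40.4 in control and 20.4 in CKO ganglia, with a log2 ratio of -0.98, and *Hoxd4* was at 5.92 and 3.20, a ratio of -0.87. The other genes of the group did not follow, with *Hoxa4* at 4.03 and 4.33 and *Hoxb4* higher, as above. Paralog group 4 took 22.3% of the Hox FPKM in controls and 12.3% in CKO. Among the other HoxC genes, *Hoxc8* was at 24.3 and 18.2, while *Hoxc5* was at 14.8 and 13.7 and *Hoxc6* at 20.0 and 19.9.

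The rest of the central genes differed little. *Hoxa5* was at 17.5 in control and 20.5 in CKO ganglia, *Hoxa7* at 13.4 and 17.6, and *Hoxd8* at 14.9 and 14.5. *Hoxa6* was at 4.06 and 3.07, a log2 ratio of -0.39. All 4 were inside 1.5-fold, as were the 5 anterior genes, whose ratios ran from -0.04 to 0.34.

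Posterior Hox genes were higher in CKO by 1.5-fold in 5 of 6 cases, against 18.9% of all genes. Of these, *Hoxd9* and *Hoxa10* could only have been higher, which leaves *Hoxa9*, *Hoxb9* and *Hoxc10*. *Hoxa9* did not stay so after the rescaling described below. *Hoxd9* was at 0.788 in control and 2.21 in CKO ganglia, *Hoxa10* at 0.719 and 1.85, *Hoxc10* at 1.31 and 2.48, and *Hoxa9* at 2.03 and 3.51. *Hoxc9* was the exception, at 8.25 and 9.34 with a log2 ratio of 0.18. Apart from *Hoxb9* and *Hoxc9* these genes were among the lowest of the table, at percentiles from 3.49 to 13.8 of all genes in control ganglia, and *Hoxd9* and *Hoxa10* owe their rows to their CKO level. Of the Hox FPKM, posterior genes held 8.51% in controls and 13.5% in CKO. The weighted mean paralog number was 5.83 in controls and 6.21 in CKO. With *Hoxc4* left out the means were closer, at 6.21 in controls and 6.39 in CKO.

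By cluster, HoxB took 21.8% of the Hox FPKM in controls and 36.0% in CKO. The HoxC share was 46.0% and 31.7%. HoxA stood at 21.5% and 22.8% and HoxD at 10.8% and 9.48%. With *Hoxc4* left out of the sums, HoxC still went from 34.9% to 26.0% and HoxB from 26.3% to 39.0%. These shares are taken within a column and do not depend on how the columns were scaled.

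**Figure D2:**
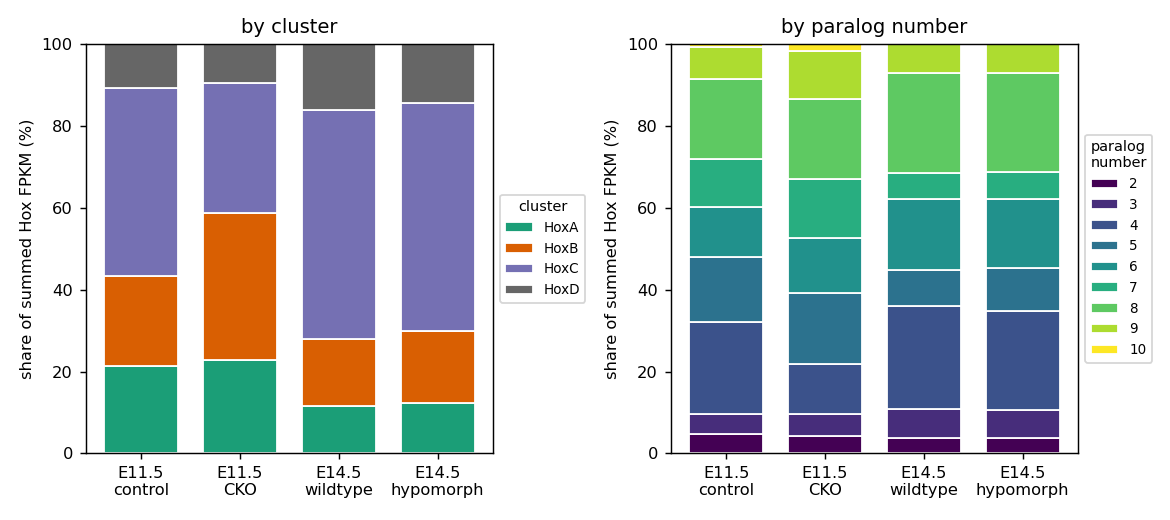
Share of the summed Hox FPKM, in percent, by cluster on the left and by paralog number on the right, in each of the 4 columns. Each bar is 1 combined value per genotype without an error. HoxB takes 36.0% in CKO ganglia against 21.8% in control, and the E14.5 bars are nearly the same in both genotypes.

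The log2 ratios do depend on scaling. When FPKM were rescaled to the same sum without erythroid genes, CKO values were multiplied by 0.849 and the median of all genes went from 0.05 to -0.18. In that scaling 7 Hox genes were at least 1.5-fold higher and 4 lower, against 12.2% and 22.5% of all genes. Among the 7 were *Hoxd9* and *Hoxa10*, listed through CKO. *Hoxb4* and *Hoxa9* were no longer among the higher, and *Hoxa6* and *Hoxc8* were added to the lower. The HoxB median was 0.95 as deposited and 0.72 rescaled, with 7 of 8 genes above 0 in both. The posterior median, which includes *Hoxd9* and *Hoxa10*, was 1.03 and 0.80. The medians of HoxA at 0.17, HoxD at 0.15, the anterior genes at 0.09 and the central genes at 0.10 changed sign, to -0.07, -0.08, -0.14 and -0.13.

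Cell type markers differed beside the HoxB genes at E11.5, where 18.9% of all genes were at least 1.5-fold higher and 12.9% lower. All 16 measured mesenchyme markers had a log2 ratio above 0 in CKO, 10 of them at least 1.5-fold, with a median of 0.83 and a sum of 618 in control and 1076 in CKO ganglia. The 2 most abundant, the collagens *Col1a2* and *Col1a1*, were at 193 and 175 in control and at 352 and 303 in CKO. All 7 neural crest and glial markers were at least 1.5-fold higher, with a median of 1.19, and their most abundant members were *Fabp7*, at 90.9 and 208, and *Sox10*, at 29.3 and 59.3. Of 10 sympathetic neuron markers 4 were at least 1.5-fold lower, among them *Chga*, *Gata3* and *Hand2*, with a median of -0.35. The part of these cells in the Hox differences was not tested.

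Markers of nearby tissues that carry a Hox code of their own were listed in part. Of 10 spinal cord and motor neuron markers 2 had a row, with a summed FPKM of 2.27 in controls and 2.40 in CKO. These were *Chat*, at 1.83 and 1.34, and *Irx3*, at 0.438 and 1.07, which went opposite ways. The paper also counts *Chat* among cholinergic genes of sympathetic neurons. The defining genes *Olig2*, *Mnx1* and *Lhx3* had no row. Of 8 limb bud markers 3 had a row, and 1 of these, *Hand2*, is also expressed in sympathetic neurons. The other limb genes with a row were *Pitx1*, at 0.299 and 1.55, and *Shh*, at 0.0269 and 1.05. Of 8 mesonephros and gonad markers 2 had a row, *Wt1* at 5.97 and 8.88 and *Gata4* at 0.420 and 5.67, while *Pax2* and *Lhx1* had none. Of 8 sensory neuron markers 5 had a row, with *Pou4f1* at 0.676 and 1.57, *Neurog2* at 0.212 and 2.70 and *Eya1*, the most abundant, at 109 and 54.6. Of 6 trophoblast and decidua genes *Prl8a2* and *Prl7a1* had a row, at 0.241 and 0.0304 in control and at 48.4 and 7.88 in CKO. Of 6 endothelial markers 1, *Tek*, was at least 1.5-fold higher, against 18.9% of all genes, and the most abundant, *Cdh5* and *Pecam1*, were at 11.1 and 12.5 in control and at 12.6 and 14.2 in CKO. The *Irx3*, *Pitx1*, *Shh*, *Gata4*, *Neurog2*, *Pou4f1* and prolactin-family rows each lay under an FPKM of 1 in control and were listed through CKO. In CKO, *Gata4* at 5.67 and *Wt1* at 8.88 were above *Hoxa10* at 1.85, *Hoxd9* at 2.21, *Hoxc10* at 2.48 and *Hoxa9* at 3.51. They were below *Hoxc9* at 9.34 and *Hoxb9* at 16.3. *Pitx1* at 1.55 and *Shh* at 1.05 were below all of these posterior Hox genes. Levels of different genes do not show which cells they came from. The part of such tissue in the Hox differences was not tested.

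**Figure D3:**
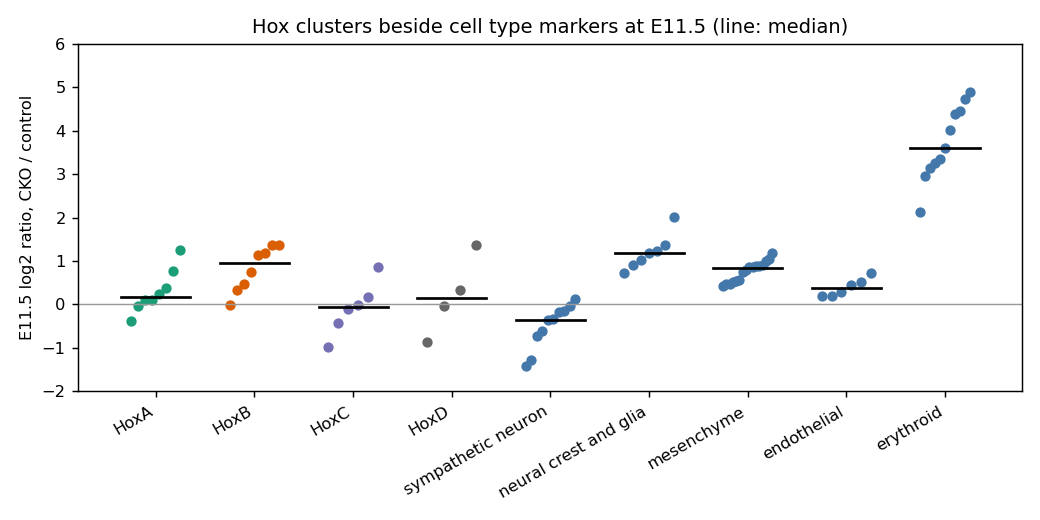
Log2 ratio of CKO over control at E11.5 for each Hox gene, by cluster, and for each marker of 5 cell types; each point is a gene and the black line is the median. HoxB has a median of 0.95, mesenchyme of 0.83 and neural crest and glia of 1.19, and the erythroid points lie above 2. The globin gene *Hbb-y*, listed at 0 in CKO, is not drawn.

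*Hoxb4*, *Hoxb8* and *Hoxc4* are shown with sequence from upstream of their start sites, because *Hoxb4* and *Hoxb8* were higher and *Hoxc4* was lower in CKO. RefSeq promoter windows on GRCm38.p6 were matched by symbol for 14 of the 26 genes, with 15 windows in all, and the 250 bases before the start were searched on both strands. Capitals mark the homeodomain core TAAT, or ATTA on the other strand, and the composite Pbx-Hox motif TGATNNAT, which may overlap the core. The *Hoxb8* window lies at chr11:96281655-96281904, the *Hoxb4* window at chr11:96318017-96318266 and the *Hoxc4* window at chr15:103034145-103034394, all on the plus strand.
Hoxb4: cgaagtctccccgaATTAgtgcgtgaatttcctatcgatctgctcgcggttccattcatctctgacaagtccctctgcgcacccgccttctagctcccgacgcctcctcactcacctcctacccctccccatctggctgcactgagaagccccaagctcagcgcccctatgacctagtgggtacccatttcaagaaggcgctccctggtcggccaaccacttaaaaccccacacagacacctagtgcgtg
Hoxb8: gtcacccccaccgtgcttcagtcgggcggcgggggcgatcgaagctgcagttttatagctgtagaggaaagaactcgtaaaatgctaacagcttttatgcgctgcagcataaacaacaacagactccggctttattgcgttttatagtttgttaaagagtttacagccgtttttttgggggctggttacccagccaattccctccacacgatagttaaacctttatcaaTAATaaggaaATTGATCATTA
Hoxc4: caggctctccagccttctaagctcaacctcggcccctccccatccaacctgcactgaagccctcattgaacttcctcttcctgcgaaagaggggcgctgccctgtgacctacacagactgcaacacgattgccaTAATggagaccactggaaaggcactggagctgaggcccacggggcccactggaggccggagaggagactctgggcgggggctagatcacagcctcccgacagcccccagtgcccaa

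The *Hoxb8* window holds a Pbx-Hox composite that overlaps a TAAT core near its start site, and the *Hoxb4* and *Hoxc4* windows hold 1 core each and no composite. Over the 15 Hox windows, TAAT or its complement was found in 86.7% against 54.9% of all 32851 windows, and the composite in 13.3%, those of *Hoxa2* and *Hoxb8*, against 7.68%. The median GC content was 54.8% for the Hox windows and 52.4% for all. A match in these windows is a description of the letters and says nothing of binding.

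MicroRNA genes lie within the Hox clusters, and those of the miR-196 family are known to act on Hox transcripts. Rows were found for *Mir196a-1* beside *Hoxb9*, *Mir196b* inside the span of *Hoxa9*, *Mir615* inside that of *Hoxc5* and *Mir10b* inside those of *Hoxd4* and *Hoxd3*. Whether fragments of the last genes came from the Hox transcripts around them was not tested. Mature sequences from RefSeq on GRCm38.p6 are shown for the arm best known to be active, with the seed, bases 2 to 8, in capitals.
miR-196a-5p: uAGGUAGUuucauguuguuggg
miR-196b-5p: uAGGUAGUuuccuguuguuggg
miR-10b-5p: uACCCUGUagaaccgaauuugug
miR-615-3p: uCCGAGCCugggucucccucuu

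Both miR-196 sequences share a seed, and a match to it, ACTACCT, was found in the longest annotated 3′ UTR of 7 of 26 Hox genes, 26.9%, against 6.90% of 12328 genes. *Hoxa7* held 4 matches, *Hoxc8* held 3, and *Hoxa4*, *Hoxa5*, *Hoxa9*, *Hoxb6* and *Hoxb7* held 1 each. The miR-10 match ACAGGGT was found in 0 of 26 Hox UTRs against 13.6% of genes, and the miR-615-3p match GGCTCGG in *Hoxb4* alone, against 3.20%. The median 3′ UTR was 947 bases long for the Hox genes and 1206 for all. Of the 7 genes with a miR-196 match, *Hoxb6* and *Hoxa9* were at least 1.5-fold higher in CKO and the others were inside 1.5-fold. Higher at that fold were 9 of the 26 Hox genes, including *Hoxd9* and *Hoxa10*, which were listed through CKO, and 18.9% of all genes. After rescaling without erythroid genes *Hoxa9* was inside 1.5-fold and *Hoxc8* was lower.

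*Hoxb8* carries a site of another kind, in which nearly the whole of miR-196a pairs. At chr11:96146202-96146223 of mm9, on the plus strand, 21 of 22 bases matched the complement of miR-196a-5p, with 1 difference, A18G, in capitals. The token gives the base of the full complement, its position counted from 1 at the 5′ end of the site, and the base of the site. The next best match among the Hox UTRs, in *Hoxd8*, had 15 matching bases.
Hoxb8 site: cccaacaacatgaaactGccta

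Rows of the microRNA genes were erratic. *Mir196a-1* was at 6.51 in control and listed at 0 in CKO ganglia at E11.5, and at 28.4 in wildtype and 29.6 in hypomorphic ganglia at E14.5. *Mir196b* was at 7.18 in control and 8.28 in CKO and had no row at E14.5. *Mir615* was listed at 0 in control and at 5.40 in CKO ganglia, and at 16.1 and 13.9 at E14.5. *Mir10b*, with a row at E14.5 alone, was listed at 0 in wildtype and at 60.5 in hypomorphic ganglia. In libraries of polyadenylated RNA these values count fragments over a short precursor locus, not the mature microRNA, and a value of 0 may be a failed estimate. *Mir10a* and *Mir196a-2* had no row.

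Some non-coding and predicted genes inside the clusters also had a row. *Mira*, a long non-coding RNA that RefSeq places in HoxA, was at 31.2 in control and 37.8 in CKO ganglia and at 12.0 and 10.6 at E14.5. *Gm53*, next to *Hoxb9* at chr11:96112419-96126182, was at 1.93 and 3.18 at E11.5, a log2 ratio of 0.69, and at 1.49 and 1.599 at E14.5. *6720416L17Rik*, on the opposite strand between *Hoxd3* and *Hoxd1* at chr2:74586479-74600953, was at 0.804 and 1.47, and at 1.18 and 1.199 at E14.5. *2700086A05Rik*, antisense across *Hoxa4* to *Hoxa7* at chr6:52125216-52165075, was at 1.19 and 1.13 at E11.5. Of these, *Gm53* and *6720416L17Rik* were at least 1.5-fold higher at E11.5, as were 18.9% of all genes. *6720416L17Rik* lay under an FPKM of 1 in control and was listed through CKO, so it could only have been higher.

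At E14.5 the Hox code of hypomorphic ganglia was close to that of wildtype ganglia. At least 1.5-fold higher was 1 of 22 Hox genes, against 2.89% of all genes, and 0 were at least 1.5-fold lower, against 2.12%. The gene was *Hoxb5*, at 3.97 in wildtype and 6.04 in hypomorphic ganglia, a log2 ratio of 0.59 that was just past 1.5-fold. The median ratio was 0.14 over the Hox genes, 18 of which were above 0, and 0.003 over all genes. The ratios were thus small but mostly to one side.

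The most abundant genes gave similar ratios at E14.5. *Hoxc8* was at 35.3 in wildtype and 38.9 in hypomorphic ganglia, *Hoxc4* at 34.7 and 38.0, and *Hoxc6* at 28.8 and 31.1. All 5 HoxC genes had a ratio between 0.11 and 0.15. The 8 HoxB genes were all above 0, from 0.05 for *Hoxb2* and *Hoxb9* to 0.59 for *Hoxb5*, with a median of 0.22. *Hoxb8*, *Hoxb6* and *Hoxb9*, the HoxB genes with the highest ratios at E11.5, were at 3.14 and 3.64, 2.69 and 3.37, and 3.74 and 3.89. Outside HoxB, *Hoxa3* at 3.20 and 4.198 and *Hoxa5* at 8.98 and 11.6 had the highest ratios, 0.38 and 0.36. Below 0 were *Hoxa6* at 4.19 and 3.62, *Hoxd4* at 13.5 and 12.3, *Hoxd3* at 8.16 and 7.88, and *Hoxa4* at 1.872 and 1.868, the last of which turned above 0 when FPKM were rescaled without erythroid genes.

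The remaining genes at E14.5 stayed inside 1.5-fold. *Hoxb7* was at 9.65 in wildtype and 11.4 in hypomorphic ganglia, *Hoxd8* at 11.9 and 12.4, *Hoxc9* at 10.97 and 12.1, and *Hoxc5* at 5.56 and 6.20. *Hoxb2* was at 5.52 and 5.73, *Hoxb3* at 3.23 and 3.75, *Hoxa7* at 3.71 and 3.73, *Hoxa2* at 2.21 and 2.72, and *Hoxb4* at 1.97 and 2.56. The cluster shares differed by at most a few percentage points, with HoxB at 16.4% and 17.8%, HoxC at 55.7% and 55.6%, HoxA at 11.7% and 12.2% and HoxD at 16.2% and 14.3%. The weighted mean paralog number was 5.81 in wildtype and 5.82 in hypomorphic ganglia. Mesenchyme markers had a median ratio of 0.24 at this stage, with a sum of 1450 in wildtype and 1618 in hypomorphic ganglia, and neural crest and glial markers of 0.11. Their part in the Hox ratios was not tested.

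**Figure D4:**
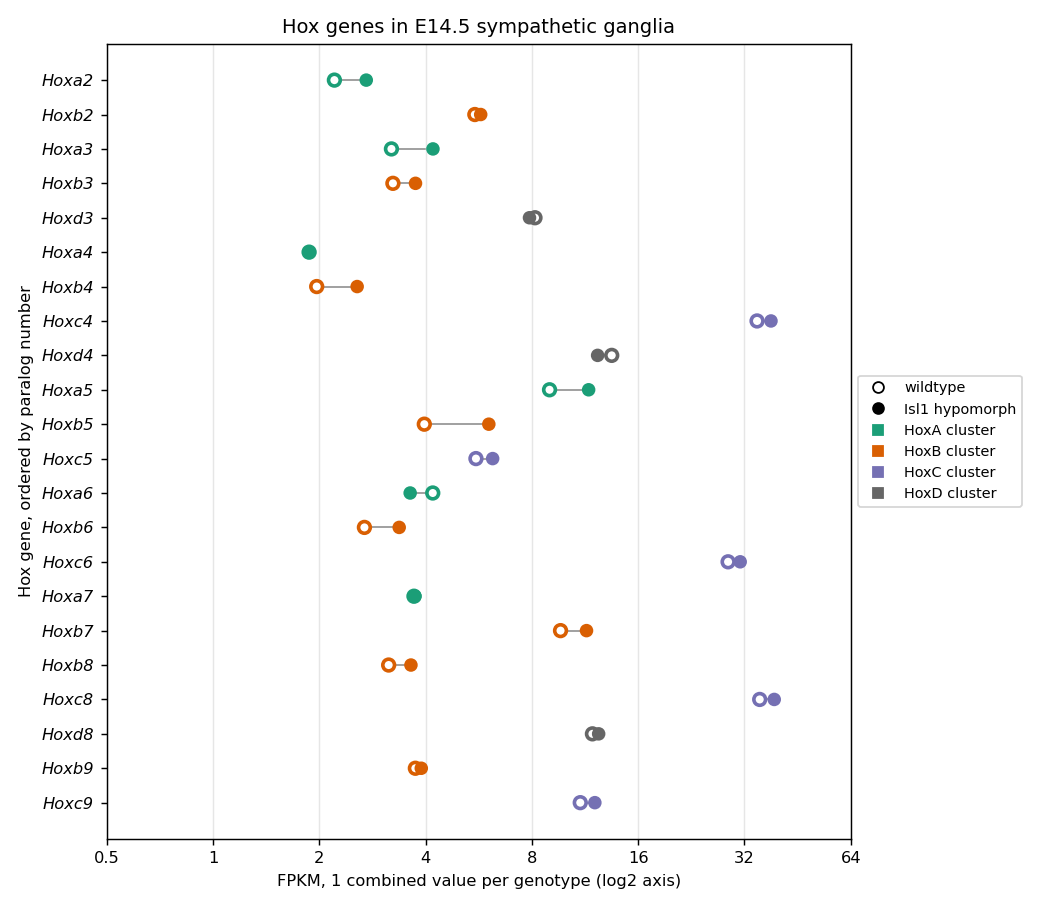
FPKM of the 22 Hox genes at E14.5 on a log2 axis, ordered by paralog number from top to bottom, with an open circle for wildtype ganglia, a filled circle for *Isl1* hypomorphic ganglia and the colour giving the cluster. Each circle is 1 combined value of 2 libraries without an error. *Hoxc8*, *Hoxc4* and *Hoxc6* lie apart on the right, and *Hoxb5* has the longest line, from 3.97 to 6.04.

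Between the stages, the Hox code of E14.5 wildtype ganglia was set beside that of E11.5 controls. The tables were normalized separately and the E11.5 controls carried *Wnt1-Cre* and the reporter, so ratios between them are a description only. At least 1.5-fold lower at E14.5 were 4 of 6 HoxA genes, 4 of 8 HoxB genes and *Hoxc5*, and *Hoxd3* and *Hoxd4* were at least 1.5-fold higher. Of the 22 genes with a row in both tables, 9 were at least 1.5-fold lower at E14.5, against 12.7% of all 12728 shared genes, and 2 were at least 1.5-fold higher, against 29.7%. The median log2 ratio was -0.37 over the Hox genes and 0.24 over all genes.

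*Hoxa7* differed most, at 13.4 in E11.5 control and 3.71 in E14.5 wildtype ganglia, a log2 ratio of -1.83. *Hoxc5* went from 14.8 to 5.56, *Hoxb8* from 7.29 to 3.14, *Hoxa2* from 5.06 to 2.21, *Hoxa4* from 4.03 to 1.87 and *Hoxa5* from 17.5 to 8.98. *Hoxb9*, *Hoxb6* and *Hoxb7* had ratios of -0.91, -0.83 and -0.60. All 8 HoxB genes were below 0 in this ratio, with a median of -0.50, and 5 of 6 HoxA genes, with a median of -1.01.

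*Hoxd4* went the other way, from 5.92 at E11.5 to 13.5 at E14.5, as did *Hoxd3*, from 4.02 to 8.16, with log2 ratios of 1.17 and 1.005. The spans of these 2 genes overlap. *Hoxc8* and *Hoxc6* had ratios of 0.54 and 0.52, and *Hoxc9* of 0.41. The genes of the HoxC cluster thus took a larger share of the Hox FPKM at E14.5, 55.7% against 46.0%, and HoxA a smaller one, 11.7% against 21.5%. The weighted mean paralog number stayed at 5.81 against 5.83.

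*Hoxa9*, *Hoxa10*, *Hoxc10* and *Hoxd9* had a row at E11.5 and none at E14.5. Their E11.5 control levels, from 0.719 to 2.03, were near the limit of 1 of the table. A further value bears on any ratio between the tables. Beside the clusters, *Hnrnpa3*, *Hnrnpa1* and *Atp5g1* went from 222, 380 and 125 in E11.5 control to 11.3, 29.2 and 11.9 in E14.5 wildtype ganglia, more than 10-fold each, and such genes have many near-identical processed copies in the genome. Whether the tables treated fragments with several possible origins alike was not tested.

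**Figure D5:**
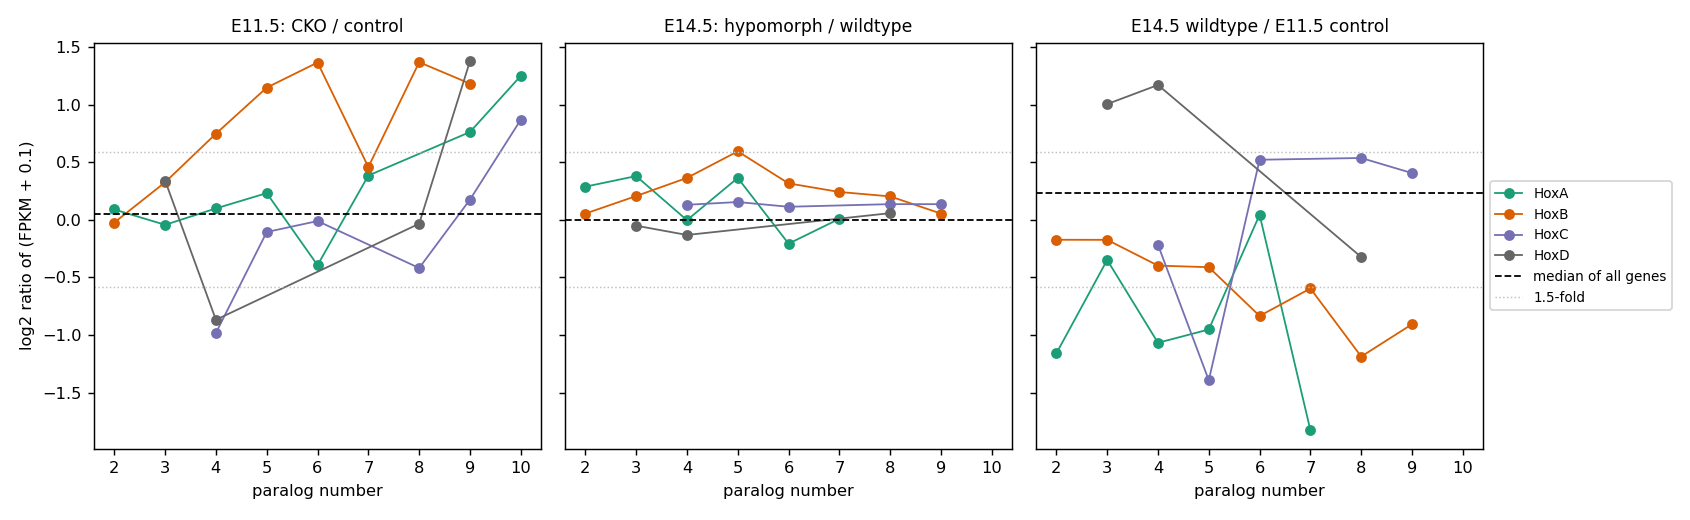
Log2 ratio of (FPKM + 0.1) against paralog number for the 4 clusters in 3 comparisons, with the median of all genes dashed and 1.5-fold dotted; lines join genes of a cluster. HoxB lies above the other clusters from *Hoxb4* to *Hoxb8* at E11.5, all points at E14.5 lie between -0.21 and 0.59, and in the comparison of the stages HoxB lies below 0 throughout.

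The cofactors of HOX proteins were present at levels above most Hox genes. The TALE genes described here had a row at both stages. In control ganglia *Meis1* was at 46.3, *Pbx2* at 35.6, *Pbx3* at 23.6, *Meis3* at 22.6, *Meis2* at 18.3 and *Pknox1* at 17.5, while *Pknox2* and *Pbx4* were at 3.83 and 1.51. At E11.5 *Pknox1* was at least 1.5-fold lower in CKO, at 11.5. Inside 1.5-fold, the CKO levels were 36.0 for *Meis1*, 46.5 for *Pbx2*, 19.2 for *Pbx3*, 27.2 for *Meis3*, 17.2 for *Meis2*, 5.56 for *Pknox2* and 1.16 for *Pbx4*. At E14.5 none was past 1.5-fold, and the ratios ran from -0.32 for *Meis3*, at 47.9 in wildtype and 38.5 in hypomorphic ganglia, to 0.28 for *Pbx4*, at 1.85 and 2.27.

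The signals that set axial identity were read from genes of the retinoic acid pathway and its partners. Of 12 with a row, 6 were at least 1.5-fold higher in CKO at E11.5 and 2 lower, with a median log2 ratio of 0.65. Over all genes these shares were 18.9% and 12.9%. *Aldh1a2*, which makes retinoic acid, was at 21.2 in control and 35.5 in CKO ganglia, and *Cyp26b1*, which degrades it, was at 2.01 and 7.61. The cellular retinoic acid binding proteins *Crabp1* and *Crabp2* were at 386 and 664 and at 39.6 and 84.5. Among receptors, *Rarg* was at 5.78 and 9.66 and *Rxrg* at 3.05 and 6.09, while *Rara* was at 14.5 and 8.79. *Gdf11*, a TGF-beta family ligand that promotes posterior Hox expression, was at 10.3 and 6.80. At E14.5 *Crabp1* alone was past 1.5-fold, at 64.6 in wildtype and 103 in hypomorphic ganglia.

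Chromatin regulators of the Hox clusters were, where past 1.5-fold, lower in CKO at E11.5. Of 17 Polycomb and trithorax genes with a row, 0 were at least 1.5-fold higher and 4 lower, with a median log2 ratio of -0.14. Over all genes 18.9% were higher and 12.9% lower. *Kmt2a*, the trithorax methyltransferase that maintains Hox expression, was at 11.9 in control and 4.11 in CKO ganglia. *Kdm6b*, a demethylase of the Polycomb mark, was at 23.8 and 9.18, *Kat6a*, an acetyltransferase, at 22.3 and 12.4, and *Suz12*, a core Polycomb subunit, at 38.4 and 21.4. The most abundant members, *Phc2* and *Rnf2*, were at 50.9 and 48.8 and at 60.1 and 68.1. At E14.5 none of 18 was past 1.5-fold, and *Kmt2a* was at 19.3 in wildtype and 18.8 in hypomorphic ganglia.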

How the data were processed

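RNA-seq was done on mouse sympathetic ganglia, with 2 libraries in each of 4 groups. Per the study's methods, polyA RNA was made into SMARTer cDNA, sequenced in pairs and aligned to mm9 with TopHat. The authors ran cuffdiff on uniquely mapped reads to obtain FPKM, combined the libraries of a genotype and deposited 1 value each for genes at 1 FPKM or more in either genotype (0 genes failed this). The submitters' processing notes instead name TopHat 1.3.1, Cuffdiff 1.3.0 and a fly build, dm3. Mm9 was used for coordinates. The authors' fold changes and p-values were not used. Depth is unknown.

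Computed here, with Python 3.11.15, numpy 2.4.6 and pandas 2.3.3, were log2 ratios with a pseudocount of 0.1, counts past 1.5-fold, shares and medians. Ratio and count steps were tested on simulated data. The members and gene lists were chosen with earlier results of these data known. Named were all Hox genes, *Isl1*, TALE genes, cluster microRNAs, other genes inside the clusters, and, of other lists, members past 1.5-fold and the 2 most abundant, with defining markers and genes beside the clusters named after their values were seen; a few items of these lists are not reported here. Alternatives were other pseudocounts (1, 0.01), folds (2, 1.2), filters (FPKM of 5 or more in either genotype, 1 in both), scalings and member sets.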

Additional observations from a re-analysis of the deposited data

How the results depend on the processing

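No paired analysis was possible because the tables hold 1 combined value per genotype, and for the same reason no library could be left out. Of the alternative settings, 180 values of the main comparisons stayed within their tolerance and 34 moved, and all 371 values of single genes and clusters stayed, a list or cluster median within 1.2-fold, a gene within 1.5-fold, a count within 1.5 times, a share within 10 percentage points and a mean paralog number within 0.5. The rescaling, by 0.849 at E11.5, and the centring shifted ratios by less than the fold tolerances. For medians and single genes, staying was thus fixed in advance under these settings. The HoxA and HoxD medians at E11.5 stayed in this sense although their sign changed on rescaling, and *Hoxb4* and *Hoxa9* although they fell inside 1.5-fold.

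At E11.5, 4 Hox genes were higher among those at FPKM 5 or more (17 genes tested), against 15.1% of all genes under that filter. With a fold threshold of 2, 0 were lower, against 4.83% of all genes, and with 1.2, 4 were lower, against 27.5%. After rescaling without erythroid genes 4 were also lower, against 22.5%. Past the threshold among the TALE genes was 1 gene with a pseudocount of 1, 1 after centring on the median, 0 at a fold of 2 and 8 at 1.2. Of the retinoic acid list 2 passed at a fold of 2 and 5 after rescaling, and of the Polycomb and trithorax list 2 at a fold of 2 and 8 at 1.2. Over all genes, 8.42% were higher and 4.83% lower at a fold of 2, and 34.8% and 27.5% at 1.2. These shares were 15.0% and 10.6% with a pseudocount of 1, 17.2% and 14.7% after centring, and 12.2% and 22.5% after rescaling. At E14.5, 0 Hox genes were higher with a pseudocount of 1, against 1.62% of all genes, or at a fold of 2, against 0.977%. At a fold of 1.2, 6 Hox genes were higher, against 12.2%. At that fold 2 genes of each of the TALE, retinoic acid and Polycomb and trithorax lists passed, while 12.2% of all genes were higher and 9.01% lower. At a fold of 2, 0 retinoic acid genes passed, while 0.977% of all genes were higher and 0.783% lower.

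With only Hox genes that overlap no other gene, 5 at E11.5, the HoxC share was 78.2% in control and 45.1% in CKO ganglia, and 85.9% and 85.5% in wildtype and hypomorphic ganglia; the mean paralog number was 4.85 in control, 4.46 in wildtype and 4.44 in hypomorphic ganglia. Weighted by log2(FPKM + 1), the HoxC share was 30.4% in control, 33.8% in wildtype and 33.3% in hypomorphic ganglia, and the HoxB share 28.6% and 29.9% in the last 2. Set beside E11.5 CKO, wildtype E14.5 ganglia had 4 Hox genes higher, a Hox median of -0.78 and a HoxB median of -1.35. The member sets and weights differ by construction, and the last setting has another reference column. FPKM without read numbers set no limit of detection, so a low Hox level cannot be given a precision.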

Other observations

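Genes that flank the clusters but are no Hox genes were listed, 3 on each side of each cluster with a row. Of these 24 genes, 3 were at least 1.5-fold higher and 3 lower at E11.5, against 18.9% and 12.9% of all genes, and 1 was higher and 0 lower at E14.5, against 2.89% and 2.12%. Their median log2 ratio of CKO over control was -0.05. Beside HoxB none of 6 was past 1.5-fold, with ratios from -0.32 for *Cbx1* to 0.51 for *Snf8* and a median of 0.07, while 5 of the 8 HoxB genes between them were higher. The nearest, *Atp5g1*, 119 kb from the cluster, was at 125 in control and 164 in CKO ganglia.

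Beside HoxD, *Lnp*, 88.9 kb from *Hoxd13* and next to which limb enhancers of HoxD lie, was at 11.8 in control and 5.81 in CKO ganglia, with a log2 ratio of -1.01, and at 15.8 and 15.3 at E14.5. *Mtx2*, 60.7 kb from *Hoxd1*, was at 63.7 and 62.9. Beside HoxC, *Cbx5*, a heterochromatin protein, was at 111 in control and 68.9 in CKO ganglia, and *Calcoco1* at 15.4 and 23.3. Beside HoxA, the non-coding *Gm15055* was past 1.5-fold at both stages, at 0.881 and 1.71 at E11.5 and at 0.687 and 1.44 at E14.5. It lay under an FPKM of 1 in control and wildtype ganglia and was listed through the mutants, so it could only have been higher. It was also the 1 flanking gene counted as higher at E14.5. *Hibadh* was at 20.6 and 31.2 at E11.5. These values have no replicate check.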
